A study of Rattus norvegicus with 2 samples.

Results

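Barcodes of vascular smooth muscle were sought in single-cell RNA sequencing (scRNA-seq) of skeletal muscle, and 203 of 21154 quality-passed barcodes were selected. A barcode stands for 1 droplet and, in most cases, 1 cell. It was selected when it held at least 1 unique molecular identifier (UMI, 1 counted transcript) of Myh11, the smooth muscle myosin heavy chain, and at least 2 of the 5 genes Acta2, Tagln, Cnn1, Lmod1 and Notch3. Barcodes with any UMI of Kcnj8 or Abcc9 (pericyte potassium channel subunits), Ptprc (immune), Pecam1 or Cdh5 (endothelial) or Pdgfra (fibro-adipogenic progenitors, FAPs) were left out. Because these measured values chose the members, the levels of the 12 genes are a description and no test rests on them. The series held 1 library from a Sprague Dawley (SD) rat and 1 from a rat-mouse chimera, an SD rat that had received edited Dmdmdx; Pax7-nGFP mouse induced pluripotent stem cells (iPSCs) as a morula. The Dmdmdx iPSCs had been edited with CRISPR/Cas9 to restore the reading frame of dystrophin, and Pax7-nGFP is a reporter that labels satellite cells. Muscle from the whole body was dissociated with collagenase and dead cells were removed by sorting on a viability dye. The comparison asked which cell types the mouse cells had entered and how the tissue compared with that of the SD rat. The ages of the animals were not given in the sources used here, and with 1 library per group no p-value was computed.

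Vascular smooth muscle cells form the contractile wall of arteries, arterioles and veins, and in skeletal muscle they set how much blood reaches the fibres. Calcium entering through voltage-gated channels binds calmodulin, which activates myosin light chain kinase, and the phosphorylated light chains let Myh11 filaments pull on smooth muscle actin. Myosin phosphatase reverses this step, and serum response factor with myocardin drives the contractile genes. Pericytes, the mural cells of capillaries, share part of this programme and are the closest relatives of smooth muscle cells in the tissue.

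The chimera library held 13299 barcodes and 118872850 UMIs (median 7407 per barcode), and the SD rat library 10117 barcodes and 70957559 UMIs (median 5373). The libraries shared 43 barcode sequences, of which 39 passed the quality limits and 0 were members. Predicted doublets made up 3.65% of chimera and 1.83% of SD rat quality-passed barcodes, and 0 of the 203 members were among them. Intervals below are exact 95% intervals that cover counting error only.

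Of the 203 members, 102 came from the SD rat (1.14% of 8980 barcodes, 0.927 to 1.38), 99 were rat barcodes of the chimera (1.17% of 8477, 0.950 to 1.42) and 2 were mouse barcodes of the chimera. Rat barcodes had at most 20% of their UMIs on mouse genes and mouse barcodes at least 80%, and a further 12 barcodes in between met the gene rule without being members. The intervals of the rat shares overlapped under this rule. With at least 3 of the 5 supporting genes they did not, at 0.278% (0.180 to 0.411) in the SD rat and 0.790% (0.613 to 1.00) in the chimera rat. The mouse gene share of the chimera rat members had a median of 12.1% and reached 19.3% just inside the threshold, whereas the 12 mixed barcodes ran from 20.3% to 62.9%.

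A single UMI of Myh11 was weak evidence of a smooth muscle cell. Myh11 was found in 20.6% of all SD rat barcodes and 12.3% of chimera rat barcodes. In immune barcodes, which should lack the gene, it was found in 17.7% of SD rat barcodes (median 7208 UMIs) and in 9.64% of chimera rat barcodes (median 7598 UMIs). Tagln, the actin-binding protein transgelin, was found in 22.0% and 12.6% of these immune barcodes and Acta2, smooth muscle alpha-actin, in 9.79% and 7.44%. Cnn1 (calponin), Lmod1 (leiomodin, an actin nucleator) and Notch3 (a mural cell Notch receptor) were each found in at most 1.20% of them. The members had median depths of 4912.5 UMIs in the SD rat and 7418 in the chimera rat. Of the 102 SD rat members 50 held exactly 1 Myh11 UMI, against 21 of the 99 chimera rat members.

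The threshold on the 5 supporting genes cut through a gradient. The 77 SD rat members with exactly 2 of the 5 genes had a summed Myh11 level of 386 CPM (UMIs of the gene scaled to a total of 1000000), against 218 CPM in the 239 barcodes just outside with 1 gene and 2775 CPM in the 22 members with 3. Among chimera rat barcodes the level was 181 CPM with 1 gene, 461 CPM in the 32 members with 2, 1983 CPM in the 27 with 3, 4129 CPM in the 30 with 4 and 5394 CPM in the 10 with all 5. Most SD rat members therefore lay close to the threshold and most chimera rat members did not. The excluded genes removed 168 further SD rat barcodes, most often through Pdgfra (69), Cdh5 (62) and Pecam1 (57), and 152 chimera rat barcodes, most often through Abcc9 (65), Cdh5 (59) and Kcnj8 (56).

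When the members of each library were grouped by their own transcriptomes, the data went partly against the label of vascular smooth muscle. In the SD rat, 33 of 102 members (32.4%, 23.4 to 42.3) formed a subgroup led by Myh11, Acta2 and Tagln over the rest of the library, called smooth muscle-like here. The name also required that fibroblast, myofibre and progenitor markers were not above those of the other members. It set no limit on pericyte markers. In these 33 members the mean log2 ratio of pericyte markers over the other members was 1.74, beside 1.94 for smooth muscle markers. Of the pericyte markers, Rgs5 was found in 54.5% of them, Pdgfrb in 51.5% and Vtn in 36.4%. In the smooth muscle-like subgroups of the chimera rat that mean was 0.37 and -0.44 for pericyte markers. The largest SD rat subgroup, with 40 members, was led over the other members by Cpa1 and Asb5. Stmn1 (a microtubule regulator of dividing cells) and Cdh15 (M-cadherin of satellite cells) were also among its leading genes. Of its barcodes, 37.5% held Pax7, the satellite cell transcription factor. It also held barcodes of other kinds. Among them were the only SD rat member with all 5 supporting genes, and a barcode with 26 Myh11 and 71 Tagln UMIs, both with 0 Pax7 UMIs. Another held 509 Acta1 UMIs among 8150. A further 16 members were led by the matrix genes Smoc2, Dcn and Col1a1. Another 13 were led by myofibre genes of slow fibres (Tnnc1, Tnnt1 and Myl3) and fast fibres (Mybpc2 and Myh4) together with Ca3. Of these 13, Tnnt1 was found in 23.1% and Tnnc1 and Myl3 in 46.2% each, against 84.6% for Myh4 and 92.3% for Ca3. In the chimera rat, 63 of 99 members (63.6%, 53.4 to 73.1) were smooth muscle-like, and over the other members 22 were led by Dcn, Tnfaip6 and Mfap4, 8 by Cpa1 and Asb5 and 6 by the myofibre genes Tnnt3, Tnni2 and Tnnc2. Over the rest of the library these 22 were led by Acta2, Tagln, Myl9 and Myh11 instead. Named over the rest of the library alone, smooth muscle-like members would number 49 in the SD rat (48.0%, 38 to 58.2) and 85 in the chimera rat (85.9%, 77.4 to 92.0), so the split depends on the comparator. At a finer grouping, chosen after seeing the data, the smooth muscle-like members numbered 33 in the SD rat and 76 (76.8%) in the chimera rat.

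**Figure D1:**
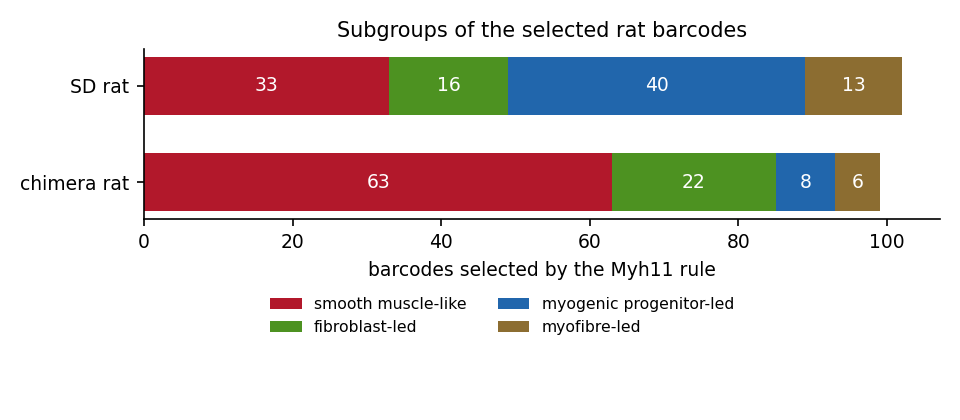
Number of selected rat barcodes (horizontal axis) in each library, split by the genes that led each subgroup, with the count printed in each segment. Smooth muscle-like barcodes were 33 of 102 in the SD rat and 63 of 99 in the chimera rat, and the progenitor-led subgroup held 40 and 8.

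The subgroups differed in the genes that name them. Myh11 per 10000 UMIs of a barcode had a lowest, median and highest value of 5.04, 22.0 and 120 in SD rat smooth muscle-like members and of 0.731, 1.95 and 43.5 in the progenitor-led members, with medians of 1.22 in the fibroblast-led and 5.61 in the myofibre-led members. In the chimera rat the medians were 32.0 and 40.1 in the 2 smooth muscle-like subgroups, 4.43 in the fibroblast-led, 0.922 in the progenitor-led and 2.46 in the myofibre-led members. Ranges of the subgroups overlapped in both libraries. Transgelin had medians of 14.1 per 10000 UMIs in the SD rat progenitor-led members and 13.9 in the smooth muscle-like members, with summed levels of 2020 and 3749 CPM. Acta1, the skeletal muscle actin of fibres, was found in every member and had medians of 589 and 803 per 10000 UMIs in the myofibre-led members of the SD rat and chimera rat, where no other subgroup exceeded a median of 61.2. Decorin (Dcn) had a median of 81.8 in the SD rat fibroblast-led members. In the chimera rat fibroblast-led members its median was 1.84 and its range 0 to 99.3, while Acta2 there reached 128 and Tagln 173, so this subgroup of 22 held barcodes of more than 1 kind.

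**Figure D2:**
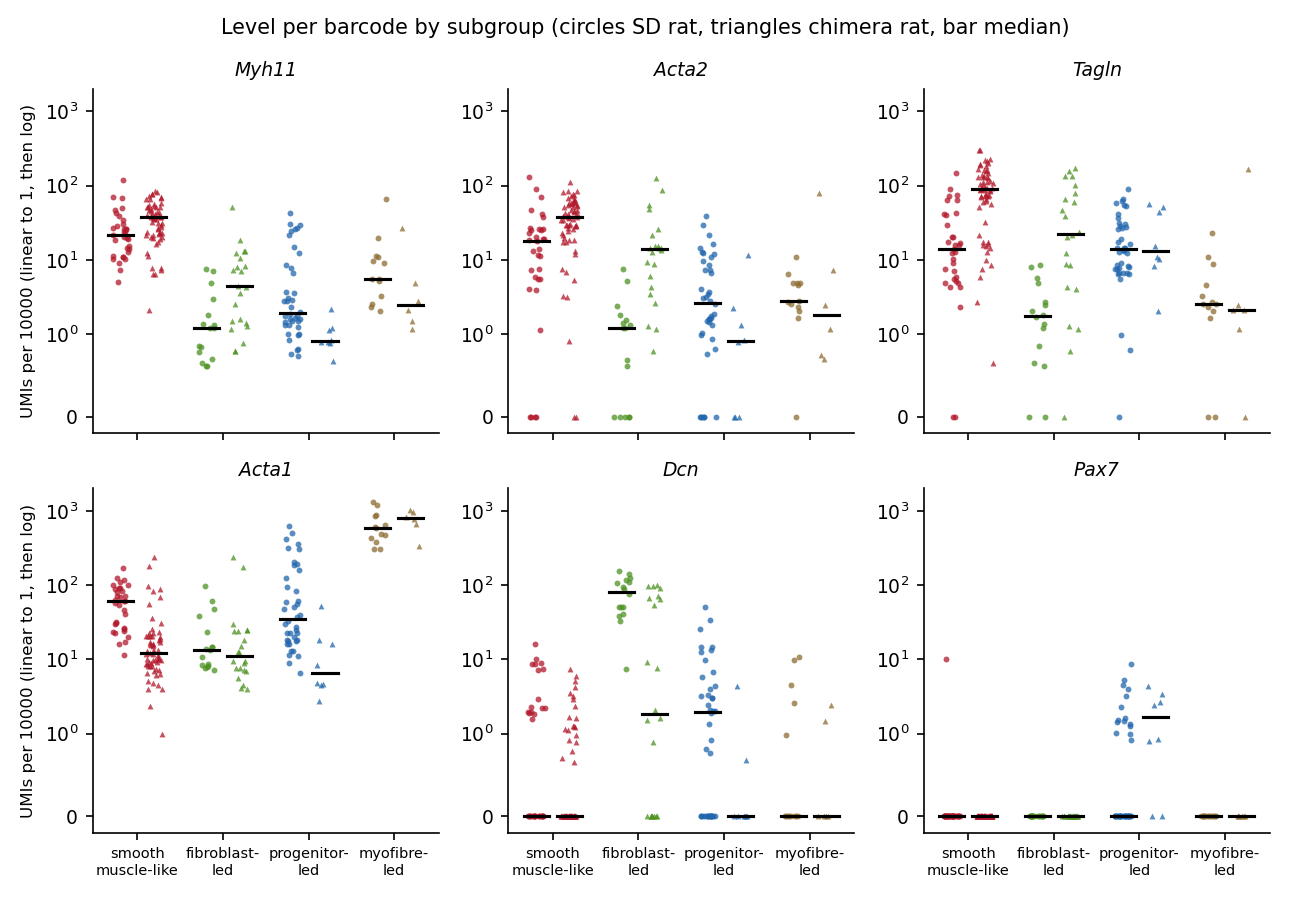
UMIs per 10000 UMIs of each selected barcode (vertical axis, linear up to 1 and logarithmic above) for 6 genes, by subgroup, with circles for the SD rat, triangles for the chimera rat and bars for medians. Myh11 medians were 22.0 in SD rat smooth muscle-like members and 1.95 in progenitor-led members, and Pax7 was found mainly in the progenitor-led members.

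The number of supporting genes and the name share marker genes, so their relation is a description. Of the members with at least 3 of the 5 genes, 18 of 25 in the SD rat and 51 of 67 in the chimera rat were smooth muscle-like, and of the members with 1 Myh11 UMI only 4 and 2 were. As a share of all rat barcodes, smooth muscle-like members were 0.367% in the SD rat (0.253 to 0.516) and 0.743% in the chimera rat (0.572 to 0.950). These intervals cover barcodes of 1 library each and do not test a difference between animals. Depth differed in the same direction, with medians of 2410 UMIs per smooth muscle-like barcode in the SD rat and 6948 in the chimera rat and totals of 113644 and 446229 UMIs, and its part in this difference was not tested. Median mitochondrial shares were 11.0% and 11.8%. The Myh11 count per barcode ran from 1 through a median of 9 to 30 in the SD rat and from 1 through 24 to 85 in the chimera rat.

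To describe detection at equal depth, each barcode was thinned to 1000 UMIs. Members and subgroups had been chosen at full depth with Myh11 required, so thinning does not take depth out of that choice. Pericytes and immune barcodes were chosen without Myh11, so the contrast of Myh11 shares with them is a description. Myh11 was then found in 93.5% of SD rat and 90.5% of chimera rat smooth muscle-like members, against 100% of both before thinning. The thinned share was 19.5% and 12.7% in pericytes and 3.11% and 1.04% in immune barcodes. Among all members it was 54.3% in the SD rat and 72.4% in the chimera rat. Tagln was found in 71.0% and 98.4% of thinned smooth muscle-like members (93.9% and 100% unthinned), Acta2 in 67.7% and 88.9% (87.9% and 96.8%) and Mylk, the myosin light chain kinase, in 25.8% and 60.3% (63.6% and 93.7%). Thinning left out 2 SD rat and 0 chimera rat smooth muscle-like members and 8 and 1 of all members.

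The chimera rat smooth muscle-like members fell into subgroups of 37 and 26 barcodes. The larger was led over the other members by Id1 (a target of BMP signalling), Cox4i2 and Ndufa4l2 (mitochondrial subunits known from mural cells) and Gja4 (connexin 37), with Tagln at 12325 CPM and Rgs5, a regulator of G protein signalling known from pericytes, at 268 CPM. The smaller was led by Asic2, Plcb1 (a phospholipase C), Dmd (dystrophin), Kcnab1, Cacnb4 (a calcium channel subunit) and Prdm16, with Tagln at 8866 CPM and Rgs5 at 96.7 CPM. Myh11 was at 3645 CPM in the larger and 4563 CPM in the smaller. These leading genes chose the subgroups and are a description.

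Mouse cells were rare among the selected barcodes. Of 10 mouse barcodes with Myh11 and at least 2 supporting genes, the excluded genes removed 8, all with Pecam1 and Cdh5. They removed 152 of 251 such rat barcodes and 95 of 107 mixed barcodes of the chimera. The part of this exclusion in the mouse share of members was not tested. Mouse barcodes were 2 of the 101 rat and mouse members of the chimera (1.98%, 0.241 to 6.97) and 3 of 207 pericytes (1.45%, 0.300 to 4.18). By contrast they were 850 of 1369 endothelial barcodes (62.1%, 59.5 to 64.7), 193 of 1590 immune barcodes (12.1%, 10.6 to 13.8), 92 of 1759 FAPs (5.23%, 4.24 to 6.38) and 1861 of 10338 barcodes in all (18.0%, 17.3 to 18.8). Rat and mouse limits of 90% in place of 80% gave 2 of 23 members (8.70%, 1.07 to 28.0) and 96.0% of endothelial barcodes (94.4 to 97.3). Mouse members stayed at 2 while rat members, with a median mouse gene share of 12.1%, fell from 99 to 21. Mouse endothelial barcodes fell from 850 to 725, so both shares rose through lost rat barcodes. At the limit of 80% the interval of the members lay below those of endothelial, immune and all barcodes and overlapped those of pericytes and FAPs. Mixed barcodes, left out of these shares, were 10.6% of the barcodes meeting the gene rule, 22.2% of pericytes and 20.8% of endothelial barcodes. Of the 2 mouse members, 1 held 118 Myh11 UMIs on the mouse gene and 1 on the rat gene, with 306 Acta2, 399 Tagln, 131 Myl9 (regulatory light chain), 15 Cnn1, 10 Lmod1 and 6 Notch3 UMIs among 19972. The other held a single Myh11 UMI on the rat gene together with 3 Pax7 UMIs. A high level of mouse Myh11 therefore came from 1 member.

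**Figure D3:**
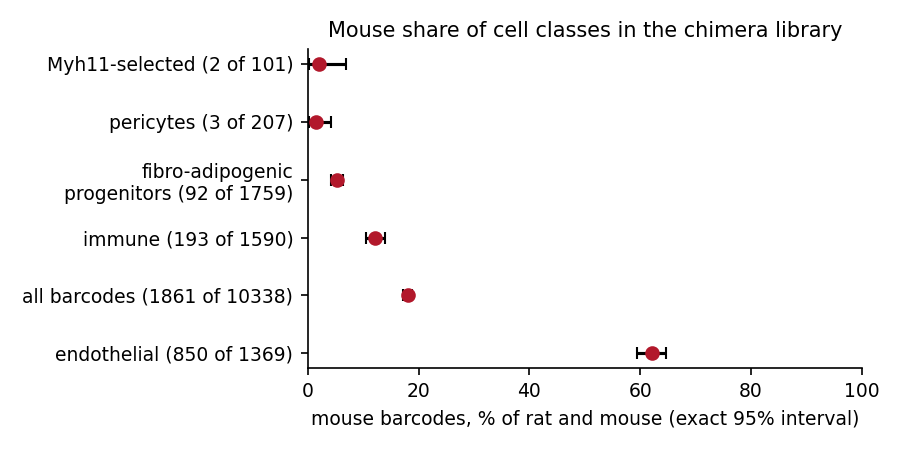
Mouse barcodes as a percentage of rat and mouse barcodes of each class in the chimera library, with exact 95% intervals and the counts beside each class name. The Myh11-selected barcodes were at 1.98% and the endothelial barcodes at 62.1%.

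Levels in the chimera rat members were then set against those in the SD rat members. Differences are log2 ratios of CPM after adding 10 CPM to each, over symbols with at least 50 UMIs in the groups compared, and a symbol counts as higher or lower past a 2-fold difference. Over all members, 191 of 3602 symbols (5.3%) were higher in the chimera rat and 303 (8.41%) lower. The median of all symbols was -0.14. With another scaling, the trimmed mean of M values (TMM), the split was 269 higher and 235 lower, and with rat genes alone it was 141 and 378. Over the smooth muscle-like members alone, a comparison chosen after seeing the data, 125 of 1591 symbols (7.86%) were higher and 196 (12.3%) lower, with a median of -0.02. TMM moved that median to 0.41 and the split to 348 higher and 76 lower, and rat genes alone gave 94 and 266. Each gene list below is therefore read beside the median of all symbols.

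Contractile lists held more higher than lower genes over all chimera rat members, and their medians were smaller within the smooth muscle-like members. Of 10 genes of the thick and thin filaments, 6 were higher and 0 lower over all members, with a list median of 1.37. Within smooth muscle-like members 2 were higher and 1 lower, with a median of 0.51 (0.96 by TMM). Myh11 and Acta2, genes of the rule, are in this list, and without them 4 of 8 were higher over all members (median 0.75) and 2 of 8 within smooth muscle-like members (median 0.42). Actg2, the enteric smooth muscle actin, was at 132 CPM (73.9 to 218) in SD rat and 457 CPM (397 to 524) in chimera rat smooth muscle-like members, a log2 ratio of 1.72 (1.00 to 2.51). It was found in 8 of 33 and 45 of 63 of them. Myl6, the essential myosin light chain, was at 3608 and 7467 CPM, a ratio of 1.05. Tropomyosin Tpm4 was at 440 and 179 CPM, a ratio of -1.25 (-1.76 to -0.73). Tpm1, another tropomyosin, was at 3370 and 3236 CPM, a ratio of -0.06. Myh11 itself, a gene of the rule, was at 2860 CPM (2557 to 3188) and 4049 CPM (3865 to 4241), a ratio of 0.50 where all members gave 1.60. Acta2 gave 0.85 where all members gave 2.17, and Myl9 gave 0.74 where all members gave 2.37. A single SD rat barcode held 67 of the 151 Myl9 UMIs, and without the barcode with the most Myl9 in each library its ratio was 1.42.

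Regulators of the filaments and the cytoskeleton were mixed. Of 22 genes 9 were higher and 0 lower over all members (median 0.94), and of 21 tested within smooth muscle-like members 3 were higher and 1 lower. The list median there was 0.06 in summed CPM and 0.51 by TMM, and it turned to -0.06 as a mean over barcodes and -0.08 with rat genes alone. Without the rule genes Tagln, Cnn1 and Lmod1, 6 of 19 were higher over all members (median 0.68), and within smooth muscle-like members 2 of 18 were higher and 1 lower (median -0.05). Tagln was at 3749 CPM in SD rat and 10802 CPM in chimera rat smooth muscle-like members, a ratio of 1.52 (1.38 to 1.67). Per 10000 UMIs its lowest, median and highest values were 0, 13.9 and 150 in the SD rat and 0.658, 90.0 and 307 in the chimera rat, so the ranges overlapped although the medians lay far apart. In pericytes the same ratio was -0.17. Csrp1, a LIM protein of the actin cytoskeleton, had a ratio of 1.04 and Des, the intermediate filament desmin, of 1.01. Of the chimera rat Des UMIs, 59.5% lay on the mouse gene, and with rat genes alone its ratio over all members turned from 1.10 to -0.21. Synpo2, an actin-bundling protein of smooth and striated muscle, was at 273 and 128 CPM, a ratio of -1.04 that became -0.59 (-1.32 to 0.18) without the barcode with the most in each library. Actn1 and Flna, which link actin to adhesions, gave -0.06 and 0.97.

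The enzymes that switch contraction on and off differed in both directions. Of 15 kinases, phosphatases and G protein regulators, 4 were higher and 0 lower over all members (median 0.77), and of 14 within smooth muscle-like members 2 were higher and 1 lower. The median there was -0.29 and turned to 0.15 by TMM. Ppp1r14a, the inhibitor of myosin phosphatase, was at 528 CPM in the SD rat and 1284 CPM in the chimera rat, a ratio of 1.27 (0.89 to 1.67). Ppp1cb, the catalytic subunit of that phosphatase, was at 326 and 713 CPM, a ratio of 1.11 (0.62 to 1.62). Mylk, the kinase that opposes it, was at 475 and 957 CPM, a ratio of 0.99 (0.59 to 1.42). In pericytes these ratios were 0.06, -0.53 and -0.06. Rgs5 was at 598 and 193 CPM, a ratio of -1.59 (-2.05 to -1.12), against -0.54 in pericytes. It was found in 18 of 33 and 20 of 63 smooth muscle-like members.

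Channel and transcription regulator lists had medians below 0 in smooth muscle-like members under every scaling tried, and the receptor list had one of -0.02 that turned to 0.41 by TMM. Of 9 calcium and ion channel genes 1 was higher and 1 lower (median -0.66), where over all members 3 of 10 were higher and 0 lower (median 0.68). Cacna1c, the pore of the L-type calcium channel, was at 1197 CPM (1004 to 1416) in the SD rat and 399 CPM (342 to 462) in the chimera rat, a ratio of -1.56. Casq2, a calsequestrin that stores calcium, was at 35.2 and 155 CPM, a ratio of 1.86 (0.65 to 3.12) on 4 SD rat UMIs. Of 9 vasoactive receptor genes 0 were higher and 1 lower (-0.75 as a mean over barcodes), where over all members 5 of 10 were higher. The lower gene was Adra1a, an alpha-1 adrenergic receptor, at 176 and 69.5 CPM. Ednra, the endothelin receptor of smooth muscle, gave -0.63 (-1.26 to 0.04). Of 14 smooth muscle transcription regulators 1 was higher and 6 lower (median -0.74), where over all members 4 of 20 were higher and 2 lower (median 0.35). Ebf1 was at 2041 and 876 CPM and gave -1.21 (-1.45 to -0.97). Tead1, a partner of YAP, gave -1.63, and Myocd (myocardin) gave -0.74 (-1.49 to 0.06) on 19 and 43 UMIs. The 1 higher regulator was Hes1, a Notch target, at 96.8 and 264 CPM, a ratio of 1.36. Among 4 Notch genes Hes1 was the 1 higher and 0 were lower (median 0.20), against 3 of 7 higher over all members.

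Matrix genes were lower in the chimera rat. Of 31 vascular matrix genes 1 was higher and 16 lower over all members (median -1.0). Of 20 within smooth muscle-like members 0 were higher and 8 lower (median -0.83, or -0.40 by TMM). Col1a1, the fibrillar collagen chain, was at 1258 and 226 CPM, a ratio of -2.42 (-2.79 to -2.06), and its lowest, median and highest values per 10000 UMIs were 0, 9.16 and 74.8 in the SD rat and 0, 1.53 and 26.2 in the chimera rat. Without the barcode with the most Col1a1 in each library its ratio was -1.89 (-2.34 to -1.44). Col3a1, also a naming marker, gave -1.83, and -1.47 (-1.95 to -0.97) when its own top barcodes were left out. Col4a1 of the basement membrane gave -1.18 and Sparc, a collagen-binding glycoprotein, -1.06. In pericytes and FAPs the Col1a1 ratio was -0.55 and -0.52. Elastin (Eln), the elastic protein of arterial walls, was at 598 and 639 CPM, a ratio of 0.09 (-0.29 to 0.49). Of 7 genes of the synthetic phenotype, which smooth muscle cells take up after injury, 0 were higher and 2 lower (median -0.36, or 0.06 by TMM). Over all members 0 of 13 were higher and 4 lower (median -0.66). Of 8 integrin and adhesion genes 0 were higher or lower (median -0.22, or 0.21 by TMM), against 2 of 9 higher and 1 lower over all members.

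Within smooth muscle-like members the count of lower immediate early and stress genes rested on 1 SD rat barcode. Of 17 genes 2 were higher and 6 lower there (median -0.74), and with rat genes alone 2 were higher and 12 lower (median -1.39). Over all members 1 of 18 was higher and 7 lower (median -0.39), or 6 lower without that barcode (median -0.29). Among smooth muscle-like members the barcode held 184 of the 332 Fos UMIs, 111 of 185 Atf3, 90 of 99 Klf2 and 70 of 138 Jun, all transcription factors of the early response, and had the most UMIs of 14 of the 17 genes. It also held 65 of 143 Col1a1 and 28 of 42 Fn1 (fibronectin) UMIs, but only 1 Acta2 and 2 Tagln beside 17 Myh11 UMIs among 8695. Without it the list had 3 higher and 0 lower genes of 17 and a median of -0.01. The matrix list then had 6 of 18 lower (median -0.83), the transcription list 4 of 14 lower, the synthetic list 0 of 6 lower, and the thick and thin filament list 1 higher and 2 lower of 10. The ratio of Klf2 turned from -2.34 to 0.59 when the barcode with the most Klf2 in each library was left out. Hspb1, a small heat shock protein of muscle, and Ier3 were the 2 higher stress genes, with ratios of 1.21 and 1.35. In pericytes Hspb1 gave 1.07 and Ier3 0.31.

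The remaining signalling lists were small. Of 6 TGF-beta and BMP genes 2 were higher and 1 lower (median 0.14), with Id1 at 1.58 on 4 and 56 UMIs, and over all members 3 of 14 were higher and 1 lower. Of 10 growth factor and receptor genes 0 were higher and 4 lower (median -0.69), and by TMM 2 were higher and 0 lower (-0.26). Among these Pdgfrb, the mural cell PDGF receptor, was at 308 and 146 CPM and gave -1.03. Over all members 3 of 12 growth factor genes were higher and 1 lower. Of 8 pericyte-associated genes 0 were higher and 3 lower (median 0.12, or -0.50 as a mean over barcodes), with Vtn (vitronectin) at -2.19, and over all members 3 of 11 were higher and 1 lower. Of 2 interferon and antigen presentation genes 0 were higher and 1 lower, and of 5 over all members 0 were higher and 2 lower. No cell cycle gene reached 50 UMIs within smooth muscle-like members, and 0 of 3 were higher and 1 lower over all members.

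Markers of other cell types moved with these ratios. Of 6 myofibre genes 0 were higher and 5 lower in chimera rat smooth muscle-like members (median -1.62, or -1.17 by TMM), and over all members 0 were higher and 1 lower (median -0.29). Summed per barcode, the 6 genes ran from 41.4 through a median of 196 to 509 per 10000 UMIs in SD rat smooth muscle-like members and from 5.98 through 35.8 to 541 in the chimera rat. Acta1 alone was at 4549 and 1885 CPM there and at 4628 and 3507 CPM in immune barcodes of the SD rat and chimera rat. Of 3 FAP or fibroblast genes 0 were higher and 2 lower (median -1.83), and over all members 3 of 4 were lower. Their sums ran from 1.96 through 9.99 to 83.1 per 10000 UMIs in the SD rat and from 0 through 3.42 to 35.2 in the chimera rat. Endothelial, immune, Schwann and myogenic progenitor markers did not reach 50 UMIs in smooth muscle-like members, where their sums were each at or below 211 CPM in the SD rat and 58.3 CPM in the chimera rat. Over all members 1 endothelial and 1 immune gene were tested, and neither was higher or lower. None of the erythroid marker symbols was a row of the reference. Myofibre, fibroblast and progenitor markers were also used to name the smooth muscle-like members within each library. Their ratios and sums within those members therefore depend on the naming. The part of fibre and fibroblast RNA in the ratios of other genes was not tested.

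**Figure D4:**
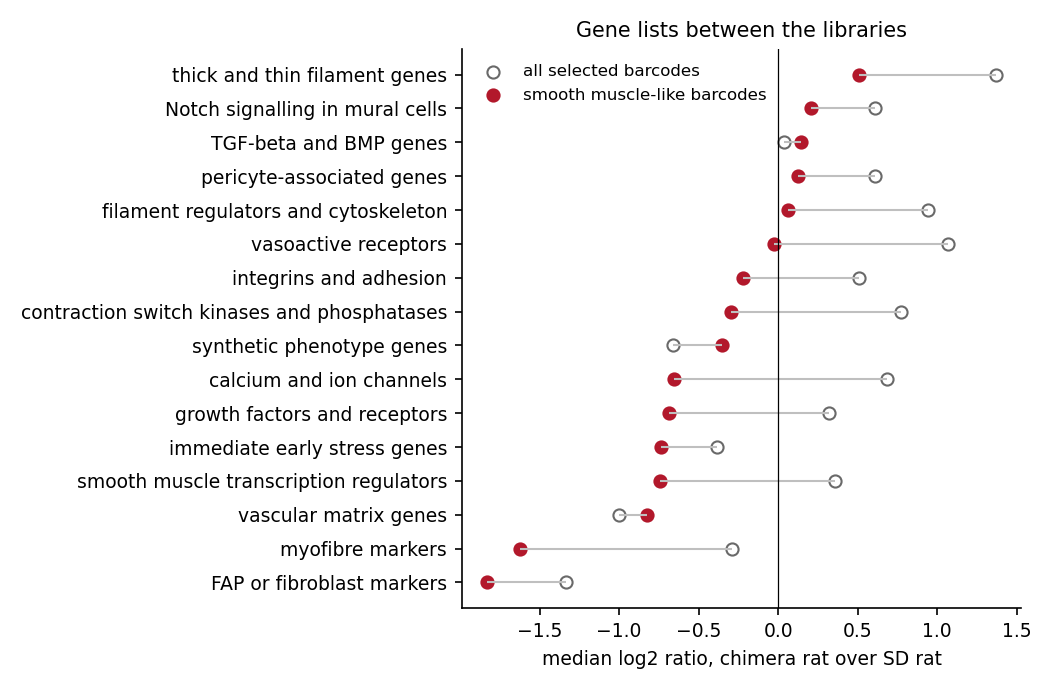
Median log2 ratio of chimera rat over SD rat (horizontal axis) for each gene list with at least 3 genes tested, with open circles for all selected barcodes and filled circles for smooth muscle-like barcodes. The lists hold genes of the rule and of the naming. The thick and thin filament median was 1.37 over all and 0.51 within smooth muscle-like barcodes, and the matrix medians were -1.0 and -0.83.

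Outside the lists, the symbols with the highest ratios differed in the same direction in the 4 classes compared. Lars2, a mitochondrial leucyl-tRNA synthetase, was at 0 UMIs in SD rat and 910 CPM in chimera rat smooth muscle-like members, at least 34.5-fold higher when 3 UMIs over the group are taken as the floor. Gphn (gephyrin) was at least 13-fold higher, and Cmss1, Camk1d, Rplp2 and Mrps28 had ratios of 1.83 to 5.96. Between 74.7% and 100% of the chimera rat UMIs of these 6 symbols lay on the mouse gene. Ratios of the same size appeared in pericytes (5.74 for Lars2), FAPs (5.80) and endothelial barcodes (5.42). With rat genes alone the ratio over all members turned to -0.41 for Lars2, -0.83 for Cmss1 and -0.84 for Rplp2. At the other end the unnamed gene ENSRNOG00000051885 was at 968 CPM in the SD rat and 0 UMIs in the chimera rat, at least 144-fold lower, with ratios of -6.61 in pericytes and -7.18 in FAPs. AABR07046956.1 and Hs6st3 were at least 91.6-fold and 68.1-fold lower. The libraries were mapped to different references and the chimera also held mouse RNA, so read assignment, free mouse RNA and the animal cannot be told apart for these symbols.

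Other symbols that differed in the smooth muscle-like members are set beside their pericyte ratios. Pcp4, a calmodulin regulator, was at 61.6 and 334 CPM, a ratio of 2.26 (1.29 to 3.33), and was found in 2 of 33 and 32 of 63 barcodes. Mt3, a metallothionein, gave 1.53 (0.98 to 2.11) against 0.13 in pericytes, and Tesc, a calcium-binding protein, gave 1.45 (0.85 to 2.09) against 0.66. Sncg, gamma-synuclein, gave 1.34 against 1.57 in pericytes. Among the lower symbols, Pde10a, a cyclic nucleotide phosphodiesterase, was at 581 and 89.6 CPM, a ratio of -2.57 (-3.12 to -2.01) against -0.29 in pericytes, and Btbd9 gave -1.91 against -0.35. Differences between these ratios were not tested.

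Pericytes are the class most like the members, and both libraries held enough of them for a side-by-side description (167 SD rat and 204 chimera rat barcodes). Both classes were chosen by genes of the same barcodes, so no test was made. In the SD rat 241 of 2573 symbols (9.37%) were higher in smooth muscle-like members than in pericytes and 398 (15.5%) lower. In the chimera rat 310 of 4252 (7.29%) were higher and 654 (15.4%) lower. Over all members the shares were 3.72% higher and 6.95% lower in the SD rat and 4.41% and 8.62% in the chimera rat, where the highest by the naming rule in both libraries included Xirp1, Kank1, Cacnb4, Slit3, Rcan2 and Cdh13.

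Contractile and calcium-handling lists held more genes above pericytes than below in both libraries. The smooth muscle-like name required that smooth muscle markers be the highest marker list over the rest of the library, pericytes included. Those markers held Mylk, Synpo2, Des, Actg2 and Myocd beside the rule genes. The contrast was therefore partly fixed by the naming, also in the counts without rule genes. Of the thick and thin filament genes 3 of 10 were higher in the SD rat (median 0.53) and 6 of 10 in the chimera rat (median 1.54), with 0 lower in either. Without the rule genes Myh11 and Acta2 these counts were 1 of 8 (median 0.26) and 4 of 8 (median 0.99). Filament regulators were higher for 8 of 18 with 1 lower, and for 13 of 22 with 0 lower, or 8 of 17 and 10 of 19 without genes of the rule. Contraction switch genes were higher for 5 of 13 and 7 of 15, with 1 and 2 lower. Channel genes were higher for 8 of 11 and 6 of 13, with 2 lower in each. Kcnma1, the large-conductance calcium-activated potassium channel that relaxes smooth muscle, gave 3.09 and 1.88, and Atp2a2, the calcium pump of the sarcoplasmic reticulum, gave 2.09 and 1.72. Actn1 gave 2.44 and 2.22 and Itga8, an integrin of smooth muscle, 2.24 and 2.76. Myocd, also a naming marker, gave 2.13 and 1.87. Its list of smooth muscle transcription regulators had 2 of 16 higher and 2 lower in the SD rat (median 0.22). In the chimera rat 5 of 20 were higher and 5 lower (median -0.30).

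Genes outside the contractile lists also stood far above pericytes. Xirp1, an actin-binding repeat protein known from striated muscle, was at 968 CPM in SD rat and 1230 CPM in chimera rat smooth muscle-like members, and its ratios over pericytes were 4.64 and 5.38. After thinning it was found in 38.7% and 57.1% of smooth muscle-like members, against 1.34% and 0.980% of pericytes (unthinned 57.6%, 76.2%, 2.99% and 3.92%). Slit3, a guidance ligand, gave 3.95 and 2.64. Cacnb4 gave 4.16 and 2.63, and Rcan2, a regulator of calcineurin, gave 3.97 and 2.63. The neurotrophin receptor Ntrk3 gave 4.62 and 2.91, and Lama5, a basement membrane laminin, gave 2.36 and 2.87. Ntrk3 is in the vasoactive receptor list, where 1 of 7 genes was higher and 1 lower in the SD rat (median -0.40). In the chimera rat 2 of 12 were higher and 4 lower (median 0.23). Xirp1, Slit3, Cacnb4 and Rcan2 were picked by the smaller of their ratios in the 2 libraries. A ratio above 0 in both libraries was therefore part of their choice and is a description.

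Matrix and synthetic phenotype lists held more genes below pericytes than above. Of the vascular matrix genes 13 of 26 in the SD rat and 19 of 31 in the chimera rat were lower. In each library 4 were higher, and the medians were -0.87 and -2.21. Summed per barcode, the list had medians of 144 and 96.5 per 10000 UMIs in smooth muscle-like members. In pericytes the medians were 190 and 155, with highest barcodes at 2025 and 1706. The smooth muscle-like name required fibroblast markers, with Dcn and Col3a1 of this list, not above the other members. Pericytes met no such naming rule, so the contrast was partly fixed by the naming. Col1a1 gave -3.14 and -5.01. Synthetic phenotype genes were lower for 7 of 13 and 11 of 14. Of the pericyte-associated genes 5 of 10 and 5 of 13 were lower and 0 higher, with medians of -0.91 and 0.07 (-0.38 for the chimera rat without the rule gene Notch3). Among them were Rgs5 at -1.80 and -2.85 and Vtn at -1.91 and -3.38. After thinning Rgs5 was found in 19.4% and 14.3% of smooth muscle-like members and in 75.2% and 65.7% of pericytes. Rgs5 is among the genes that chose the pericytes. Its ratios, its shares and its place in the list counts were therefore partly fixed by that choice. The lowest symbols by the naming rule in smooth muscle-like members included the chemokines Cxcl9, Ccl2 and Cxcl1, the cytokine Il6, Igf1, and the channel gene Kcnq5. Interferon and antigen presentation genes were lower for 4 of 5 in each library.

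**Figure D5:**
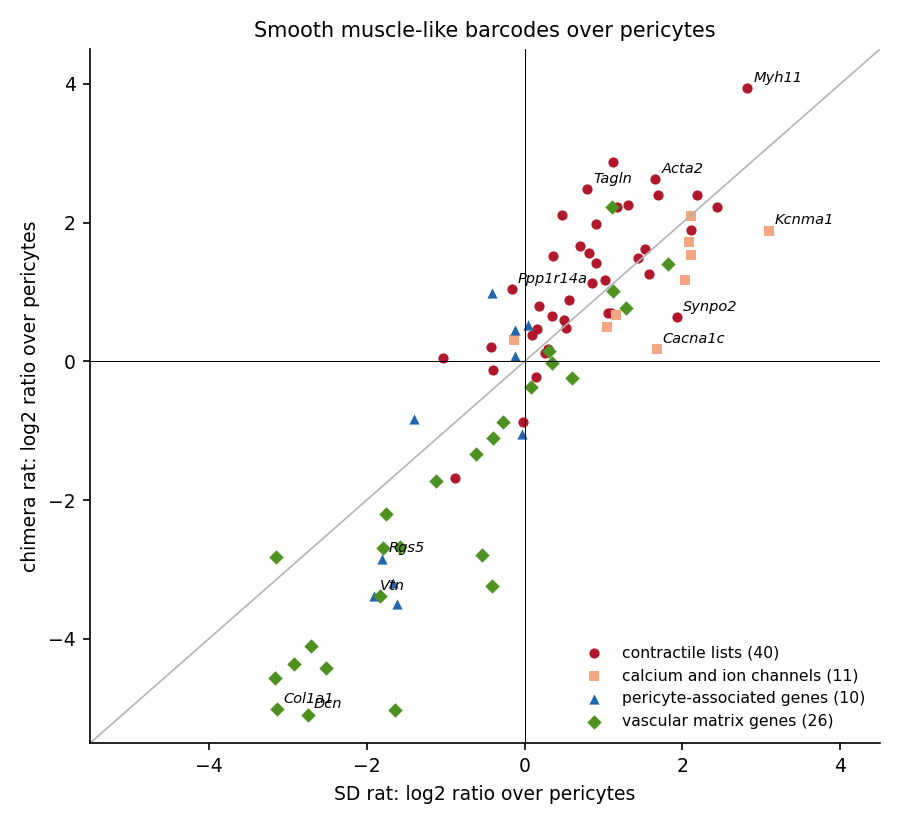
Log2 ratio of smooth muscle-like barcodes over pericytes in the SD rat (horizontal axis) and the chimera rat (vertical axis) for genes of 6 lists with at least 50 UMIs in both libraries, coloured by list, with the line of equal ratios. Contractile and channel genes lay mostly above 0 in both libraries and matrix genes mostly below, with Col1a1 at -3.14 and -5.01. Genes that named the smooth muscle-like barcodes are among those shown.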

How the data were processed

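Droplet 3′ scRNA-seq was made from 1 chimera and 1 SD rat muscle. The deposited files hold raw UMI counts per gene and barcode, which the authors made with Cell Ranger 7.1.0, and builds mRatBN7.2 and GRCm39 are named in the submitters' processing notes. The chimera reference held rat and mouse genes and the SD rat reference rat genes alone, so rat and mouse rows of a symbol were added. Barcodes were kept with at least 500 UMIs, 200 genes and at most 20% of UMIs on 13 mitochondrial protein genes per species. Doublets were scored with Scrublet in scanpy 1.11.5 (expected 8%) and were not removed.

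Members of each library were grouped with leidenalg 0.10.2 (1000 variable genes, 15 components, 15 neighbours, resolution 0.5) and named from marker lists, and the scoring of names was settled after the subgroups were seen, as were the lists without genes of the rule. Pericytes held Kcnj8 or Abcc9 with at least 2 of the 6 genes Kcnj8, Abcc9, Rgs5, Pdgfrb, Higd1b and Cspg4. Endothelial barcodes held Pecam1 and Cdh5, FAPs Pdgfra and Dcn, and immune barcodes Ptprc. Each class lacked the genes of other classes and, for mouse shares of the last 3, Myh11. Summed counts were scaled to CPM. Shares carry exact Clopper-Pearson intervals, CPM exact Poisson intervals and log2 ratios intervals from the exact binomial interval of the summed counts. UMIs from 1 cell are not independent, so these cover counting error only. Named genes were the 4 highest of each list in SD rat members, any with an interval past 2-fold, and the 10 highest and lowest ratios among symbols with at least 100 UMIs, found in at least 10% of barcodes and with at most 25% of UMIs in 1. Some genes that met this rule are not reported here, and list counts include them. Other genes in the text were chosen after their values were seen. The members, lists and comparisons were chosen with earlier results of these data known. TMM factors came from edgeR 4.0.16. The ratio calculation was tested on simulated data. Python 3.11.15, numpy 2.4.6, scipy 1.17.1 and pandas 2.3.3 were used.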

Additional observations from a re-analysis of the deposited data

Results flagged for a closer look

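For 10 genes the ratio of smooth muscle-like members over pericytes had opposite signs in the libraries with intervals clear of 0, and the difference between the libraries was not tested. SD rat values are given first and chimera rat values second. Above pericytes in the SD rat and below in the chimera rat were the transcription regulators Tead1 (1.51 and -0.47), Klf2 (0.89 and -1.06), Id4 (0.84 and -1.19), Nr4a1 (1.4 and -0.40), Fos (0.29 and -2.02), Atf3 (0.29 and -1.49) and Tshz2 (0.44 and -1.0), the fast myosin Myh4 (1.34 and -1.77) and the unnamed gene ENSRNOG00000067740 (0.67 and -0.48). Igfbp7, a secreted binding protein of vessels, was below pericytes in the SD rat (-0.53) and above in the chimera rat (0.16). A single SD rat barcode held 184 of 332 Fos, 111 of 185 Atf3, 90 of 99 Klf2 and 33 of 67 Nr4a1 UMIs, and another held 40 of 72 Myh4 UMIs.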

How the results depend on the processing

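With 1 library per animal, no result has a replicate, the group and the library cannot be told apart, and low-count genes carry wide intervals. No paired analysis was possible because each group had 1 library. Member shares of the SD rat and chimera rat were 0.800% and 0.623% with a mitochondrial limit of 10%, 0.278% and 0.790% with at least 3 supporting genes, and 1.71% and 1.70% with 1 excluded UMI allowed. A species limit of 90% gave a chimera rat share of 0.709%, mouse shares of 8.70% for members, 8.00% for pericytes and 96.0% for endothelial barcodes, 53 symbols higher in the chimera rat, and 100 higher and 185 lower than pericytes. That limit left 2964 of the 8477 rat barcodes of the chimera. Requiring both Kcnj8 and Abcc9 left 0% mouse pericytes.

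Symbols higher and lower in the chimera rat numbered 90 and 155 with a pseudocount of 50 CPM, 287 and 504 from 20 UMIs, and 72 and 84 from 200 UMIs. Lower symbols were 100 with at least 3 supporting genes and 455 with 1 excluded UMI allowed. At least 3 supporting genes gave 390 symbols lower than pericytes in the SD rat. Smooth muscle-like members alone gave 125 and 196 between libraries, 241 and 398 against SD rat pericytes and 654 lower than chimera rat pericytes, and a resolution of 1 gave a smooth muscle-like share of 76.8%. Names over the rest of the library alone gave 48.0% and 85.9%.

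Signs turned for single genes, and the cause was not tested. Myh4 was at 0.57 under the mitochondrial limit. At least 3 supporting genes gave Dcn 0.016, Dnajb1 0.069, Tap1 0.82, Mki67 0.25, Gsn 1.12 and Opcml 0.25. Rat genes alone gave Des -0.21, Lars2 -0.41, Cmss1 -0.83, Camk1d -0.54, Rplp2 -0.84 and Mrps28 -0.018, which lie mostly on mouse genes. Smooth muscle-like members alone gave Nrarp -0.024, Dnajb1 0.28, Tap1 0.13, Mki67 0.53 and Opcml 0.29. Without the barcode with the most UMIs Klf2 was at 0.59. All of these alternatives were planned except the use of smooth muscle-like members alone, the resolution of 1, the other naming and the left-out barcodes, which were chosen after seeing the data.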
